A study of Homo sapiens with 16 samples.

Results

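The binding of HIF-1α and HIF-2α was compared within 1 cell line, HCT116, an established line from a human colorectal carcinoma. The study mapped both proteins by chromatin immunoprecipitation and sequencing (ChIP-seq) in HCT116, A549, PC3 and T47D cells, all kept in 0.5% oxygen for 16 hours, with no library from cells in normal oxygen among those analysed here. The 4 HCT116 libraries, of 16 in all, were replicates 2 and 3 of a HIF-1α immunoprecipitation (rabbit polyclonal PM14) and replicates 2 and 3 of a HIF-2α immunoprecipitation (rabbit polyclonal PM9). They held 11135 of the 23398 peaks of the series. Each isoform was read with its own antibody, so isoform and antibody cannot be told apart. The lists give no expression, so the cell line label was not checked against markers.

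A site of an isoform was a merged peak found in both of its replicates, with an overlap of at least 1 bp. This gave 2502 HIF-1α and 350 HIF-2α sites, and merging these gave 2621 sites in 3 classes. There were 2271 HIF-1α-only sites (86.6%), 231 sites of both isoforms, called shared (8.81%), and 119 HIF-2α-only sites (4.54%). The counts rest on both replicates. With 1 HIF-2α list left out there were 582 or 810 HIF-2α-only sites and up to 452 shared sites, and with 1 HIF-1α list left out 4223 or 4246 HIF-1α-only sites. The shared sites were 66.0% of the HIF-2α sites and 9.23% of the HIF-1α sites. Asking for a reciprocal overlap of at least 50% gave 2223, 184 and 156 sites in the 3 classes. At the 1-bp rule the smallest overlap of a HIF-2α site with a HIF-1α site was 504 bp (near GTF2IRD2B), the smallest gap between a HIF-2α-only site and a HIF-1α site was 2467 bp (near ZFYVE28), and 216 of the 231 overlapping HIF-2α sites lay wholly inside a HIF-1α site.

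HIF (hypoxia-inducible factor) is a pair of proteins, an oxygen-regulated α subunit and a constant β subunit. In oxygenated cells prolyl hydroxylases mark the α subunit for destruction by the VHL ubiquitin ligase, and in hypoxia it persists, pairs with HIF-1β and binds DNA at the core letters ACGTG or GCGTG, known together as RCGTG. HIF-1α is known for driving glycolytic genes, and HIF-2α shares the core motif while regulating a partly different set of genes.

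The DNA of the best-ranked sites shows what the classes have in common and where they part. Each sequence below is from the GRCh37 genome, 5′ to 3′ on the strand that reads ACGTG or GCGTG, with that core in capitals. Only the copy nearest the centre of the site is in capitals, and some windows hold further copies in lower case, on either strand. The first 3 lead the shared sites, the next 3 lead the HIF-1α-only sites that had no HIF-2α peak in either library, and the last 3 are among the best HIF-2α-only sites that had no HIF-1α peak and held a core.

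ENO1: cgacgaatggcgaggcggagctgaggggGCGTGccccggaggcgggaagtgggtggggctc
SNAPC1: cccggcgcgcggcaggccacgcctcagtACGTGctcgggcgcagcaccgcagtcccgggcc
GPI: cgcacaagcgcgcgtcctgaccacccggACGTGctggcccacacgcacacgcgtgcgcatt
NARF: ccccggcgccgtACGTGgagtgagcctgc
FAM174B: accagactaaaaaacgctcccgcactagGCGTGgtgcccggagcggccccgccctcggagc
KDM4C: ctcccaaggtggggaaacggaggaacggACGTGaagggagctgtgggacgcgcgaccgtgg
UBR4: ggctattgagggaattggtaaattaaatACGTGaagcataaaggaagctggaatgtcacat
SYTL3: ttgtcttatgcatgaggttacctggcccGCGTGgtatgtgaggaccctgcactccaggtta
GADD45B: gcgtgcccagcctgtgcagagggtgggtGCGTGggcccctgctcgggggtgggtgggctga

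The shared windows lie at chr1:8938785-8938845 (minus strand), chr14:62217862-62217922 (plus) and chr19:34850313-34850373 (plus). The HIF-1α-only windows lie at chr17:80416375-80416403 (plus), chr15:93352327-93352387 (plus) and chr9:6716196-6716256 (minus). The HIF-2α-only windows lie at chr1:19379185-19379245 (minus), chr6:159151677-159151737 (minus) and chr19:2540491-2540551 (plus). In the shared and HIF-1α-only windows the core lay 0 to 41 bp from the centre of its site. In the HIF-2α-only sites it lay 48 bp from the centre near UBR4, 3 bp near SYTL3 and 375 bp near GADD45B. The third-best HIF-2α-only site without a HIF-1α peak, near SNAPC1, held no ACGTG or GCGTG on either strand of its 1006 bp.

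A second set of letters, GGAATG, was more frequent at the centres of the HIF-2α-only sites than at those of the other classes. GGAATG is the core bound by TEAD factors, the DNA-binding partners of YAP and TAZ in the Hippo pathway of growth control. The windows below are centred on the copy nearest the middle of 5 of the best HIF-2α-only sites with GGAATG in their central 200 bp and no HIF-1α peak, with every GGAATG in capitals.

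UBR4: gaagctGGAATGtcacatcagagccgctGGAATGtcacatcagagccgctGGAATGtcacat
TEAD1: GGAATGaggacaGGAATGaaatgaacgcca
MYO1C: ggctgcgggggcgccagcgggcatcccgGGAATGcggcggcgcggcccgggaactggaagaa
PTPN14: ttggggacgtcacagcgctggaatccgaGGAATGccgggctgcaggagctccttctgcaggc
CCND1: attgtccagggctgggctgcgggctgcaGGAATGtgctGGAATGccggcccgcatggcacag

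These windows lie at chr1:19379141-19379202 (minus strand), chr11:12695943-12695972 (minus), chr17:1391513-1391574 (minus), chr1:214725239-214725300 (plus) and chr11:69312183-69312244 (plus). The UBR4 window is a tandem repeat and its site held 6 copies of GGAATG. The TEAD1 and CCND1 windows each held 2 copies side by side. None of the 5 windows held ACGTG or GCGTG.

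The 4 lists differed in length before any class was formed. The HIF-1α lists held 4505 and 4465 peaks, and the HIF-2α lists 1264 and 901. The score, which the peak caller gives each peak, had medians of 78.2 and 75.5 in HIF-1α and 61.8 and 60.2 in HIF-2α, so the HIF-2α lists were shorter and lower. A peak of one replicate met a peak of the other in 55.8% and 56.4% of HIF-1α peaks and in 27.7% and 38.8% of HIF-2α peaks. Read totals were not given, so the depth of each library is unknown and its part in these differences was not tested. Nothing in the labels says whether replicates came from separate cultures.

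Shared sites held the top of the HIF-1α list. To compare sites across lists of unequal score, each peak was given its percentile within its own library, where 100 is the best. The median shared site stood at 96.0 and 95.6 in HIF-1α replicates 2 and 3, against 65.9 and 64.4 for the median HIF-1α-only site. In HIF-2α replicates 2 and 3 the median shared site stood at 86.0 and 82.1, and the median HIF-2α-only site at 78.5 and 68.9. The shared sites thus had the higher median in each of the 4 libraries. The lists differ in length and in the share of their sites that is shared, so the gaps between classes were not compared between isoforms.

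**Figure D1:**
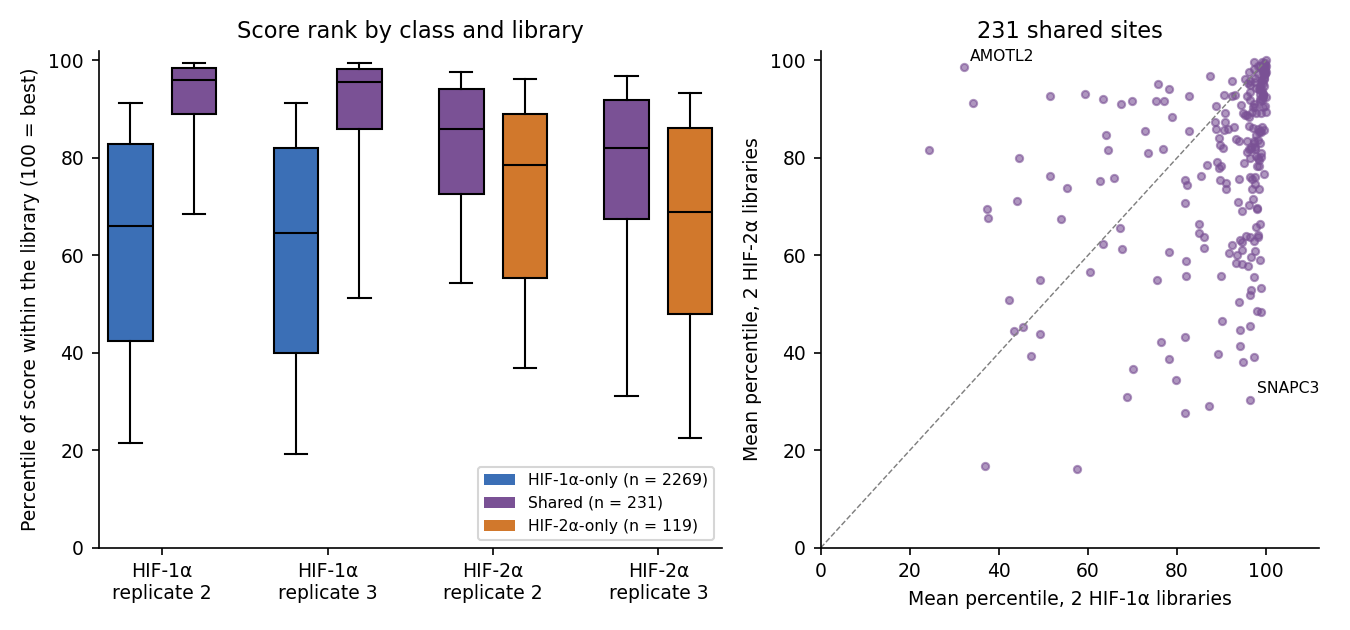
Left, percentile of score within each of the 4 libraries, by class, for the 2269 positioned HIF-1α-only, 231 shared and 119 HIF-2α-only sites; boxes span the interquartile range with the median as a line, and whiskers run from the 10th to the 90th percentile of sites. Right, mean percentile of each of the 231 shared sites in the 2 HIF-1α libraries (x axis) and the 2 HIF-2α libraries (y axis), with the site leaning most to each isoform named and a dashed line of equality; most points crowd at the right edge, where the HIF-1α percentile is high.

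When HIF-1α sites were ordered by their mean percentile and divided into 5 equal groups, 1.2% of the lowest group were shared, then 2.4%, 2.99% and 5.4%, and 34.1% of the highest. The HIF-2α sites gave 50%, 54.3%, 72.9%, 74.3% and 78.6%. Of the 50 best HIF-1α sites 43 were shared, of the 50 best HIF-2α sites 40 were shared, and 24 stood in both groups of 50. Across the 231 shared sites the mean percentiles of the isoforms had a Spearman correlation of 0.48, whereas the replicates of an isoform had 0.92 in HIF-1α and 0.77 in HIF-2α at the same sites. These correlations run over sites of the same libraries and are given as a description.

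**Figure D2:**
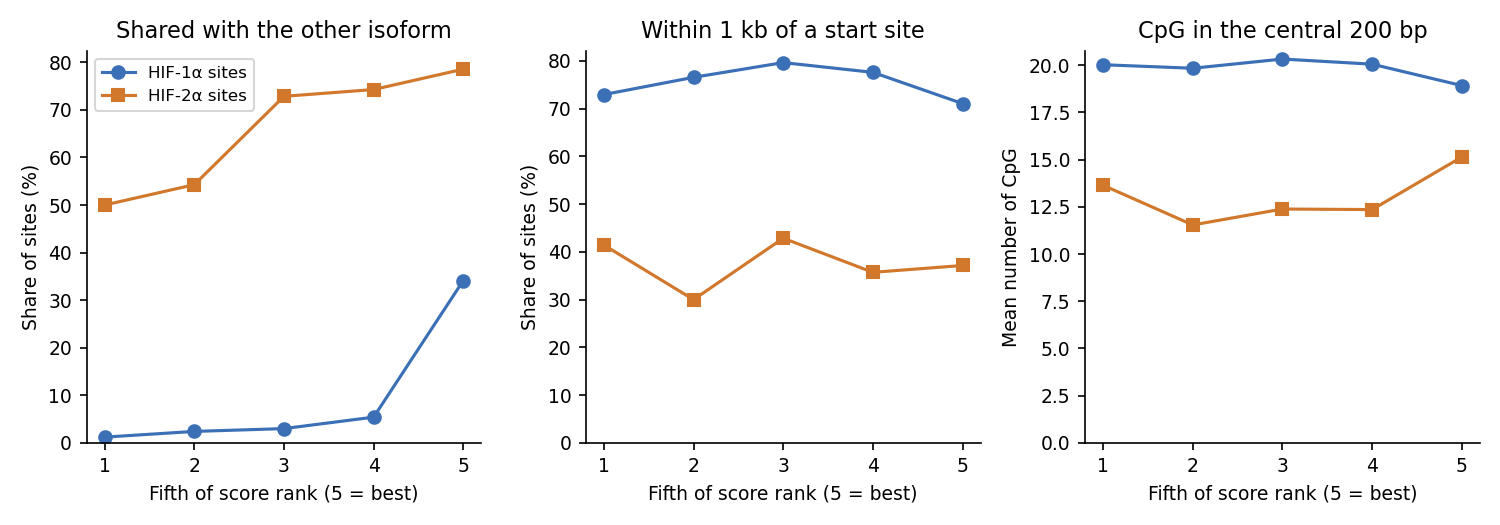
Sites of each isoform ordered by mean percentile and divided into 5 equal groups (x axis, 5 = best), with the share that is shared (left, %), the share within 1 kb of a protein-coding start site (middle, %) and the mean CpG number in the central 200 bp (right). The shared share of HIF-1α sites rises from 1.2% to 34.1%, while the promoter share stays between 71.1% and 79.6% in HIF-1α and between 30% and 42.9% in HIF-2α.

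The 10 best shared sites lay near ENO1, SNAPC1, GPI, ZNF395, BHLHE40 (2 sites), AK4, ALDOA, RASSF7 and RRP12. The ENO1 promoter site, at the gene of the glycolytic enzyme enolase, had scores of 3100 and 3100 in HIF-1α replicates 2 and 3 and of 1463 and 925 in HIF-2α replicates 2 and 3, the best score of either HIF-2α list. The GPI promoter site, at the gene of glucose-6-phosphate isomerase, had 3100 and 3223 in HIF-1α and 564 and 434 in HIF-2α. A score of exactly 3100 was given to 5 peaks of HIF-1α replicate 2 and 2 of replicate 3, which cannot be ranked among themselves. ALDOA, the gene of aldolase, had 2257 and 1773 in HIF-1α and 488 and 379 in HIF-2α at its promoter.

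Other sites among the 10 best lay away from the nearest start site. A site at -11205 bp from the start of SNAPC1, a subunit of the complex that starts small nuclear RNA transcription, had 2690 and 1971 in HIF-1α and 1078 and 473 in HIF-2α. BHLHE40, a transcriptional repressor of the hypoxia response, had both a promoter site and a site 7566 bp downstream of its start. The downstream site was among the highest for HIF-2α, with 1139 and 483 there and 1624 and 866 in HIF-1α. AK4 encodes a mitochondrial adenylate kinase, and the RRP12 site is a divergent promoter with PGAM1, the gene of phosphoglycerate mutase.

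A shared site at -49145 bp from the start of SLC2A1, the glucose transporter GLUT1, had scores of 1650 and 844 in HIF-1α and 505 and 351 in HIF-2α, within chr1:43472428-43474940. It stood at percentiles of 97.9 to 99.3 in the 4 HCT116 libraries, and 0 of the 12 libraries of the other 3 lines had a peak there. The SLC2A1 promoter site was also shared, with 458 and 703 in HIF-1α and 114 and 97.0 in HIF-2α. Between them, at -3993 bp, lay a HIF-1α-only site with 147 and 139 in HIF-1α and 60.1 in HIF-2α replicate 2 alone. Inside the gene, at 2079 bp, lay a HIF-2α-only site with the low scores of 54.4 and 53.9. The upstream site was thus the highest of the 4 sites near SLC2A1 in 4 of 4 libraries.

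Within the shared sites some leaned strongly to one isoform, by percentile within lists of unequal length. The lowest score of each list was 50.01 to 50.03, so the low scores given here lie near that floor. The AMOTL2 promoter, of an angiomotin-family protein that binds YAP, had scores of only 73.3 and 56.7 in HIF-1α but 622 and 374 in HIF-2α. Its mean percentile in HIF-1α minus that in HIF-2α was -66.6 points. The promoters of SYDE2 and FSCN1 (the actin-bundling protein fascin) and a site near SLC45A1 were also among those that leaned most to HIF-2α.

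The opposite lean was led by the promoter of SNAPC3, another subunit of the small nuclear RNA complex, with 645 and 311 in HIF-1α and 62.7 and 50.9 in HIF-2α, a mean percentile 66.1 points higher in HIF-1α. TMEM248, ARHGEF17 (a guanine nucleotide exchange factor), KAT6B (a histone acetyltransferase) and ZBTB10 followed, with differences of 54.0 to 58.3 points. All 5 had HIF-2α scores of 50.4 to 67.5, near the floor of those lists, and their mean percentiles in HIF-2α were 27.7 to 39.1.

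The best HIF-1α-only sites reached the scores of the best shared sites in HIF-1α. At the NARF promoter the scores were 3100 and 2596, and at FAM174B 2418 and 1681. By the rule that named them, these best sites had no HIF-2α peak in either library. A site at -4621 bp from KDM4C, a histone H3 lysine 9 demethylase, had 1801 and 1036. P4HA2, a subunit of the collagen prolyl hydroxylase, had 1361 and 1354 at its promoter. These sites stood at percentiles of 99.2 and above in both HIF-1α libraries.

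The rest of the 10 best HIF-1α-only sites were near PPP1R3G (a glycogen-targeting phosphatase subunit), SH2D4B, OR10H1 (an olfactory receptor), RLF, BCL2L2 (a survival protein of the BCL2 family) and VGLL4, a cofactor that competes with YAP for TEAD. Of these 10 sites, those at NARF, FAM174B, P4HA2, PPP1R3G, RLF and VGLL4 were called by all 6 HIF-1α libraries from the other 3 lines. Among the best HIF-1α-only sites over 10 kb from a start site were those near OR10H1, ANKRD10, SH3GL3 and CHD7. The ANKRD10 and OR10H1 sites held only 1 and 2 CpG in their central 200 bp and carried an ACGTG, as the sequences here show.

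OR10H1: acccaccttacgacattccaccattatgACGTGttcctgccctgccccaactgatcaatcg
ANKRD10: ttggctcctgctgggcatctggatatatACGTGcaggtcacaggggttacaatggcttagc
SH3GL3: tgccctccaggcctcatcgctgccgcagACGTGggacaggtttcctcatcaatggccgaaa

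They lie at chr19:15939690-15939750, chr13:111610104-111610164 and chr15:84048605-84048665, each on the plus strand with the core in capitals, 137 to 228 bp from the centre of the site. Their scores were 956 and 837 near OR10H1, 486 and 563 near ANKRD10, and 421 and 421 near SH3GL3.

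Of the 2271 HIF-1α-only sites 1963 had no HIF-2α peak in either library, 307 had one in 1 library and 1 had separate peaks in both. A missing call in the shorter lists is not shown to be missing binding. PNRC1, a nuclear receptor coactivator that ranked above FAM174B, is an example, with 2607 and 2295 in HIF-1α and 103 in HIF-2α replicate 3 alone. BNIP3, which drives mitophagy, had 440 and 915 in HIF-1α and 117 in HIF-2α replicate 3 alone.

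The best HIF-2α-only sites without a HIF-1α peak ranked below ENO1 but among the top peaks of the HIF-2α lists. The first, in intergenic DNA 29567 bp downstream of the nearest start of the ubiquitin ligase gene UBR4, had 884 and 745 in HIF-2α. A site in an intron 80624 bp downstream of a start of SYTL3, a vesicle-trafficking protein, had 594 and 512. The SNAPC1 site without a core, at -7030 bp from the start, had 546 and 440, and lay 3033 bp from the shared SNAPC1 site. GADD45B, a stress-response gene, had 672 and 383 at a site in an intron 64542 bp downstream of its start. It is named there only as the gene with the nearest start, and the gene of that intron was not recorded.

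Sites at CES3 (a carboxylesterase), TEAD1, MYO1C (an unconventional myosin), PTPN14 (a phosphatase that restrains YAP), ENSG00000289761 and CCND1 completed the 10 best. TEAD1 had 487 and 210 at its promoter, and PTPN14 had 242 and 165. CCND1, the gene of cyclin D1, had a pair of HIF-2α-only sites, at -143754 bp with 243 and 157 and at -4450 bp with 184 and 144. By the rule that named them, these 10 had no HIF-1α peak. Of all 119, 78 had none and 41 had one in 1 library. Of these 41, a site in an intron near MEGF6 ranked above SYTL3, with 930 and 530 in HIF-2α and 174 in HIF-1α replicate 2, and is named after its values were seen.

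Some genes were the nearest gene of several HIF-2α-only sites, at times from far away. C8orf90, CCND1, GADD45B, IGFBP3 (a binding protein of insulin-like growth factors), LIF (a cytokine) and SYTL3 each had 2. The 2 sites lay 6757 and 428886 bp from a start of C8orf90 and 56603 and 223711 bp from one of IGFBP3. They lay 36151 and 39605 bp from a start of LIF and 70774 and 80624 bp from one of SYTL3. Tied at 3 sites among HIF-1α-only genes were, among others, FTH1 (the ferritin heavy chain), CTBP2 and GADD45B. SLC45A1 had 3 shared sites, all 105351 to 120078 bp upstream. Of the 113 genes nearest to a HIF-2α-only site (0.571% of all 19794 protein-coding genes), 25 were also nearest to a HIF-1α site, as were 11.7% of all genes. A HIF-1α site lay within 50 kb of 32 of the 119 HIF-2α-only sites, and the median distance to one was 211277 bp.

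The classes lay at different distances from genes. The distance was taken from the centre of a site to the nearest start of a protein-coding transcript in GENCODE release 44, and a promoter site lay within 1000 bp. Promoter sites made up 78.1% of the HIF-1α-only class, 51.1% of the shared class (95% Wilson interval 44.7% to 57.5%) and 10.9% of the HIF-2α-only class (6.50% to 17.8%). HIF-2α-only sites over 50 kb away made up 35.3%, against 16.5% of shared and 4.94% of HIF-1α-only sites. By feature, 47.1% of HIF-2α-only sites were intergenic and 40.3% in introns.

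**Figure D3:**
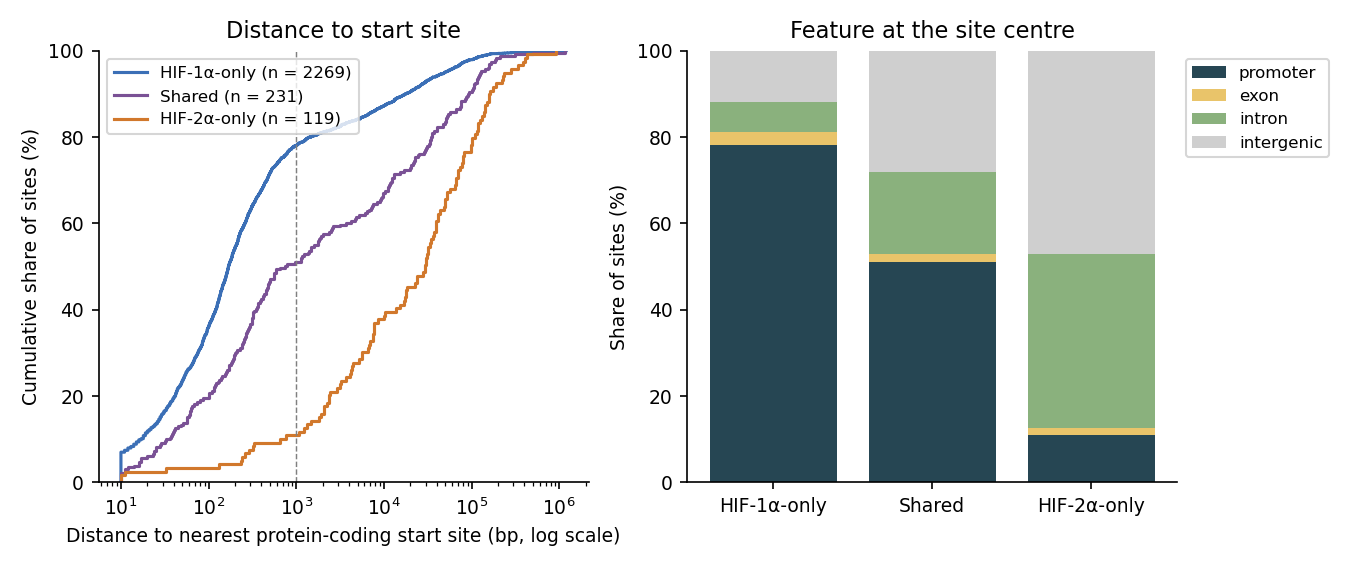
Left, cumulative share of sites (y axis, %) by distance to the nearest protein-coding start site (x axis, log scale, with distances under 10 bp drawn at 10; dashed line at 1000 bp). Right, share of sites (%) whose centre lies in a promoter, exon, intron or intergenic DNA. The 3 classes separate in the order HIF-1α-only, shared, HIF-2α-only, with promoter shares of 78.1%, 51.1% and 10.9%.

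Library values gave the same order. The promoter share of all peaks was 68.7% and 67.1% in HIF-1α (67.9% ± 1.18, SD, n = 2) and 33.0% and 31.3% in HIF-2α (32.1% ± 1.18, SD, n = 2). The libraries of the isoforms did not overlap, and the difference of -35.8 points was far larger than either SD. By the two-sided exact permutation test over the 6 splits of 4 libraries p was 0.333, which is the smallest this design can give, so no comparison of libraries here can reach 0.05. The Wilson intervals cover counting error only.

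Peaks of HIF-1α were wider. Their median widths were 1326 and 1284 bp (1305 ± 29.7 bp, SD, n = 2), and those of HIF-2α were 755 and 789 bp (772 ± 24.0 bp, SD, n = 2), with a difference of -533 bp and p = 0.333 by the same exact permutation test. The difference held at the same places, since at the 231 shared sites the median HIF-1α peak was 1455 bp and the median HIF-2α peak 917.5 bp. Higher-scoring sites were wider in both isoforms, with a Spearman correlation of 0.29 over HIF-1α sites and 0.37 over HIF-2α sites as a description.

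The 3 classes differed in base composition. The central 200 bp held 20.2 CpG on average in HIF-1α-only sites, 15.8 in shared sites and 7.55 in HIF-2α-only sites, against 3.05 to 3.37 in flanks 5 kb to either side and 14.1 around all protein-coding start sites. Away from promoters the order was the same, with 13.8, 10.6 and 6.12 CpG. By library the mean was 17.7 and 18.5 in HIF-1α (18.1 ± 0.564, SD, n = 2) and 11.9 and 11.1 in HIF-2α (11.5 ± 0.580, SD, n = 2), a difference of -6.62 with p = 0.333 by the exact permutation test.

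Shared sites carried the HIF core most often, and ACGTG in particular. ACGTG or GCGTG, searched on both strands, stood in the central 200 bp of 71.4% of shared sites, 63.1% of HIF-1α-only sites and 42.9% of HIF-2α-only sites (Wilson interval 34.3% to 51.8%). Flanks gave 26.2%, 26.0% and 21.0%, windows on all protein-coding start sites 40.9%, and windows every 10 kb of the genome 16.4%. ACGTG alone was in 51.5% of shared, 31.3% of HIF-1α-only and 21.0% of HIF-2α-only sites. GCGTG alone was in 42.4%, 47.3% and 28.6%, so the excess of the shared class over the HIF-1α-only class was in ACGTG. The E-box CACGTG, which contains ACGTG, stood in 7.79%, 8.33% and 2.52%.

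In whole sites 99.1% of shared, 98.9% of HIF-1α-only and 77.3% of HIF-2α-only sites held a core, so 27 of the 119 HIF-2α-only sites held none. The classes differ in width (medians 1613, 1528 and 881 bp), and copies per kb were 4.26, 4.22 and 3.62. Where the centre held more than 10 CpG, a core stood in 73.3% of shared, 64.9% of HIF-1α-only and 60.7% of HIF-2α-only centres. Over 1 kb from a start site with at most 5 CpG, it stood in 68.4%, 48.0% and 34.8%. By library the share of centres with a core was 61.5% and 57.6% in HIF-1α (59.5% ± 2.73, SD, n = 2) and 52.9% and 51.1% in HIF-2α (52.0% ± 1.30, SD, n = 2). The difference was -7.57 points with p = 0.333 by the exact permutation test. It turned to 4.25 points when only peaks at or above the median score of all 4 lists were kept.

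GGAATG was more frequent at the centres of HIF-2α-only sites. Over whole sites it had more copies per kb there, while the share of sites holding it was like that of shared sites. It stood in the central 200 bp of 48 of 119 HIF-2α-only sites (40.3%, Wilson interval 32.0% to 49.3%), against 9.52% of shared sites and 6.17% of HIF-1α-only sites. Flanks of the HIF-2α-only sites held it in 16.8%, all start-site windows in 7.81% and windows every 10 kb in 10.5%. The other 71 HIF-2α-only centres lacked it. Over whole sites, which are of unequal width, it was in 60.5% of HIF-2α-only, 61.0% of shared and 50.6% of HIF-1α-only sites, at 1.27, 0.610 and 0.447 copies per kb. More than 1 copy stood in the centres of 25 HIF-2α-only sites, 1 shared site and 5 HIF-1α-only sites. Without HIF-2α replicate 2 or replicate 3, when sites rest on 1 HIF-2α list, the share in HIF-2α-only centres was 16.7% and 18.0%, beside 6.33% and 5.96% of HIF-1α-only centres. The search of 12 motifs was made with earlier results of these data known, and GGAATG was followed up after its value was seen.

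The classes were also compared among sites of like position and CpG content. Among sites over 1 kb from a start site with at most 5 CpG in their centre, GGAATG stood in 32 of 66 HIF-2α-only sites (48.5%), 4 of 38 shared sites (10.5%) and 23 of 123 HIF-1α-only sites (18.7%). It was more common in HIF-2α-only sites without a HIF core in the centre (36 of 68) than in those with one (12 of 51). It was also more common in those with no HIF-1α peak in either library, at 43 of 78.

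The 48 HIF-2α-only sites with GGAATG ranked above the rest of their class. Their median percentile was 84.3 and 79.8 in HIF-2α replicates 2 and 3, against 71.0 and 65.8 for the 71 without it. A HIF-2α peak of another line lay at 35 of the 48 and at 36 of the 71. In the libraries as a whole, GGAATG stood in 7.67% and 6.10% of HIF-1α peak centres (6.88% ± 1.11, SD, n = 2) and in 14.9% and 14.7% of HIF-2α peak centres (14.8% ± 0.199, SD, n = 2), a difference of 7.91 points with p = 0.333 by the exact permutation test.

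**Figure D4:**
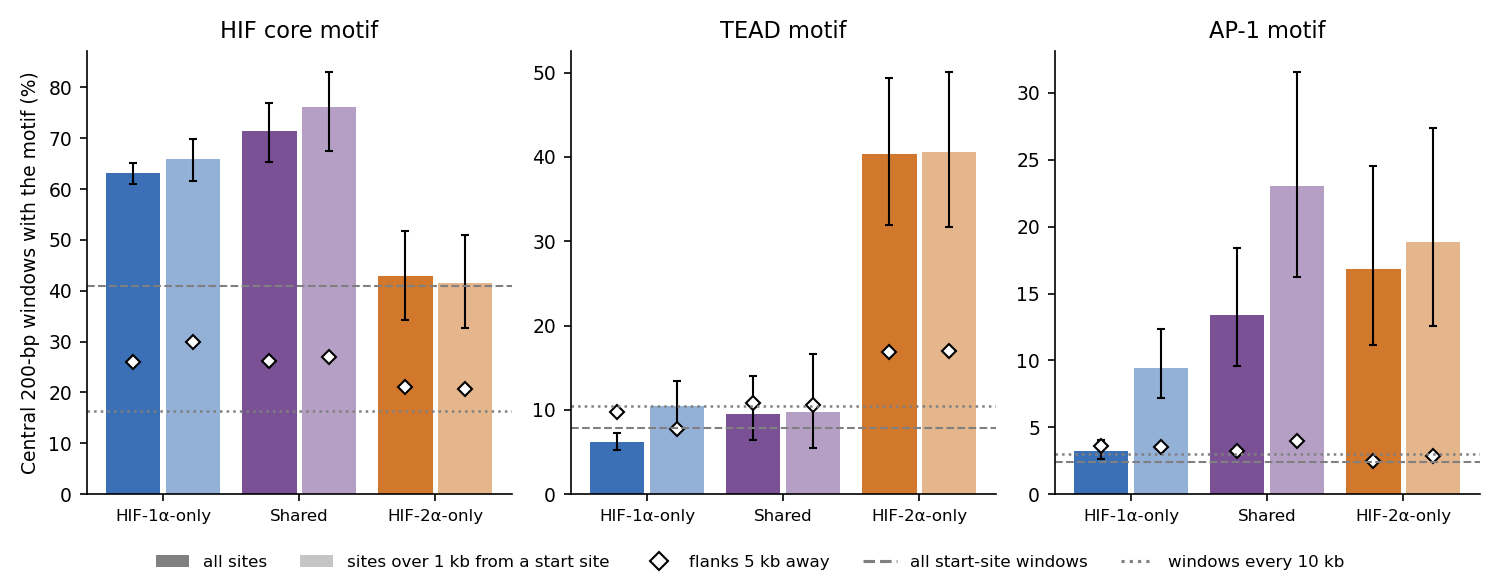
Share of central 200-bp windows (y axis, %) holding the HIF core (left), the TEAD letters (middle) or the AP-1 letters (right) in each class, for all sites and for those over 1 kb from a start site, with 95% Wilson intervals; diamonds are flanks 5 kb away, the dashed line all start-site windows and the dotted line windows every 10 kb. The TEAD letters stand at 40.3% in HIF-2α-only sites and below 11% in the other classes.

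Of the other lines, HIF-2α-only sites formed by the same rule held GGAATG in 22.2% in A549, 30.5% in PC3 and 22.1% in T47D, with flanks at 9.32% to 12.1%. Shared sites of those lines held it in 10.3%, 18.1% and 16.5%, with flanks at 12.1%, 10.6% and 10%. These are given side by side, and the difference between lines was not tested.

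TGACTCA, the site of AP-1 (JUN and FOS family dimers), followed another pattern. Over 1 kb from a start site it stood in 26 of 113 shared sites, 18.9% of HIF-2α-only sites and 9.44% of HIF-1α-only sites, with flanks at 2.83% to 3.98%. The classes were closer among those with at most 5 CpG in their centre. There it stood in 10 of 38 shared (26.3%), 15 of 66 HIF-2α-only (22.7%) and 21 of 123 HIF-1α-only sites (17.1%). CTTTGAT, a core of the Wnt-linked TCF/LEF factors, stood in 9 of 119 HIF-2α-only sites (7.56%, Wilson interval 4.03% to 13.8%), 0.837% of HIF-1α-only sites and 0 of 231 shared sites (Wilson upper bound 1.64%). Over 1 kb from a start site with at most 5 CpG, it stood in 7 of 66 HIF-2α-only (10.6%), 5 of 123 HIF-1α-only (4.07%) and 0 of 38 shared sites. Windows every 10 kb held it in 3.34%. GGGCGG is bound by SP and KLF proteins at CpG-rich promoters. Over all sites it ran the other way, in 56.9% of HIF-1α-only, 48.9% of shared and 26.9% of HIF-2α-only sites. At promoter sites alone the classes were alike, at 61.8%, 63.6% and 61.5% (n = 13 in the last). Over 1 kb from a start site the shares were 39.4%, 33.6% and 22.6%.

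Genes of the Hippo pathway were looked up because of the GGAATG share, in a list of 35 written after the values were seen. A HIF-2α-only site was nearest to 7 of the 35 (20.0%), against 0.571% of all protein-coding genes. They were TEAD1 and TEAD4 (the transcription factors), LATS2 (a kinase that inactivates YAP), WWC1 (the scaffold KIBRA), AMOTL2, PTPN14 and AXL (a receptor kinase). LATS2 had 295 and 218 at its promoter in HIF-2α and 86.4 in HIF-1α replicate 2 alone. TEAD4 had 93.7 and 77.7 in HIF-2α and 56.1 in HIF-1α replicate 2 alone. WWC1 had 318 and 99.8 in HIF-2α and 203 in HIF-1α replicate 2 alone. AMOTL2 also had its shared promoter site, and AXL a HIF-1α-only promoter site with 108 and 62.6 in HIF-1α. The CCN2 promoter site, classed HIF-1α-only with 86.9 and 81.1, had HIF-2α peaks of 127 and 76.4. A HIF-1α site was nearest to 8 of the 35, where the share of all genes was 11.7%. As the list was chosen on these sites, its count supports nothing by itself.

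Gene lists were written with earlier results known. Of 22 genes of glucose uptake and glycolysis, 20 were nearest to a HIF-1α site and 17 to a HIF-2α site, where the shares of all protein-coding genes were 11.7% and 1.64%. All 17 had a shared site (1.12% of all genes). PGK1 (phosphoglycerate kinase) had 1033 and 973 in HIF-1α and 169 and 74.3 in HIF-2α, and LDHA (lactate dehydrogenase) had 2634 and 1924 against 416 and 289. HK1, ALDOC and PDK3 had HIF-1α-only sites. ALDOC, the brain-type aldolase, had 656 and 565 in HIF-1α, and PDK3, a kinase that restrains pyruvate entry into mitochondria, 272 and 295, both with no HIF-2α peak. PFKM and PGAM1 had no site of their own, although PGAM1 shares the RRP12 promoter site.

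**Figure D5:**
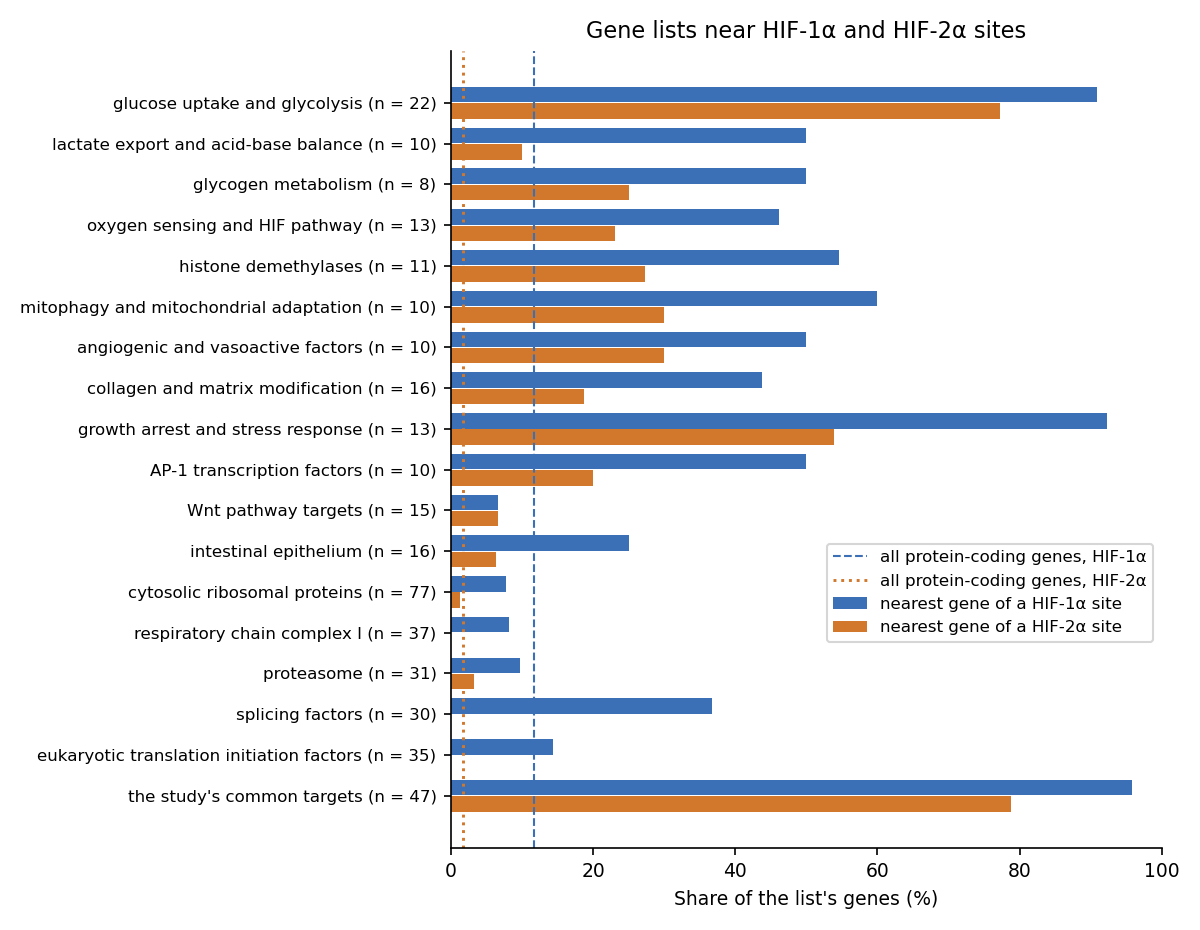
Share of the genes of each list (x axis, %) that are the nearest gene of a HIF-1α site (upper bar) or a HIF-2α site (lower bar), with the share of all protein-coding genes as lines, 11.7% for HIF-1α and 1.64% for HIF-2α. Glycolysis, growth arrest and the common targets stand highest for both isoforms, and splicing factors stand at 36.7% for HIF-1α and 0 for HIF-2α.

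Lactate and acid-base genes had a HIF-1α site in 5 of 10 and a HIF-2α site in 1 of 10, beside 11.7% and 1.64% of all genes. SLC16A3, the lactate exporter MCT4, had a shared site with 2057 and 1381 in HIF-1α and 395 and 399 in HIF-2α. SLC16A1 (the transporter MCT1), the bicarbonate transporter SLC4A7 and the carbonic anhydrases CA2 and CA12 had HIF-1α-only sites with scores of 56.5 to 127. CA9, a carbonic anhydrase known as a hypoxia marker, was nearest to no site.

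Of the 13 oxygen-sensing genes 6 had a HIF-1α site and 3 a HIF-2α site, beside 11.7% and 1.64% of all genes. EGLN1 and EGLN3, prolyl hydroxylases that mark HIF-α for destruction, and SIAH2, a ubiquitin ligase of some prolyl hydroxylases, had shared sites. EGLN3 had 2, at 12252 bp downstream (1667 and 851 in HIF-1α, 297 and 122 in HIF-2α) and at -109131 bp from its start (1126 and 1043, 256 and 266). CITED2, HIF1AN and EP300, which restrain or assist HIF transactivation, had HIF-1α-only sites. HIF1A, EPAS1, ARNT and VHL were the nearest gene of no site, which does not show that no site lies around them.

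Growth arrest and stress genes had a HIF-1α site in 12 of 13 and a HIF-2α site in 7 of 13, beside 11.7% and 1.64% of all genes. NDRG1, a stress-induced differentiation gene, had its shared site at -74198 bp, with 1710 and 1185 in HIF-1α and 382 and 299 in HIF-2α. DDIT4, which restrains mTOR, had a shared site at -12977 bp (1350 and 775, 360 and 184) and a promoter site with 1121 and 676 in HIF-1α and 95.7 in HIF-2α replicate 2 alone. CDKN1A (the cell cycle inhibitor p21), CCNG2, BHLHE41, PNRC1 and TP53I3 had HIF-1α-only sites.

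For the lists that follow, the shares of all genes were again 11.7% for HIF-1α and 1.64% for HIF-2α. Histone demethylases had a HIF-1α site in 6 of 11 and a HIF-2α site in 3 of 11, KDM3A, KDM4B and KDM6B. Mitophagy genes had 6 and 3 of 10, with shared sites at BNIP3L, MXI1 and FAM162A. Angiogenic genes had 5 and 3 of 10. VEGFA, the vascular growth factor, had HIF-1α-only sites at its promoter (182 and 179) and 24263 bp downstream (174 and 89.7), while ADM, the gene of adrenomedullin, had a shared site with 1230 and 683 in HIF-1α and 500 and 442 in HIF-2α. Matrix genes had 7 and 3 of 16, and glycogen genes 4 and 2 of 8, with shared sites at GBE1 and PGM1.

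Housekeeping lists lay near the share of all genes, with 1 exception. Ribosomal protein genes had a HIF-1α site in 6 of 77 (7.79%), complex I genes in 3 of 37 (8.11%), proteasome genes in 3 of 31 (9.68%) and translation initiation factors in 5 of 35 (14.3%), beside 11.7% of all genes. Splicing factors had one in 11 of 30 (36.7%) and a HIF-2α site in 0 of 30, where the share of all genes was 1.64%, so that a count of 0 is near the background. All 11 were HIF-1α-only promoter sites. Their HIF-1α scores ran from 50.3 to 339. HNRNPK, an RNA-binding protein, had 339 and 282 in HIF-1α and 83.1 in HIF-2α replicate 2 alone, and HNRNPF had 66.2 and 50.3.

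AP-1 genes had a HIF-1α site in 5 of 10 and a HIF-2α site in 2 of 10. Beside this and each list below stand 11.7% and 1.64% of all genes. FOSL2 had a shared promoter site, and JUNB was nearest to a HIF-2α-only site with 58.4 and 52.0 in HIF-2α and 78.7 in HIF-1α replicate 2 alone. Of 15 Wnt targets only NKD1 (HIF-1α-only, 50.6 and 55.6) and CCND1 had a site, so that 6.67% had a HIF-1α site and 6.67% a HIF-2α site, beside 11.7% and 1.64% of all genes. Of 16 intestinal epithelial genes 25% had a HIF-1α site and 6.25% a HIF-2α site. EPCAM, CDH1 and KLF5 had HIF-1α-only promoter sites and ELF3 a shared site. The other 12 had none, among them CDX1, CDX2, VIL1, LGR5 and HNF4A. The study's common HIF targets, chosen in part on these libraries and so no independent evidence, had a HIF-1α site in 45 and a HIF-2α site in 37 of 47 coding genes. This counts only the nearest gene of a site and uses no HIF-1β peaks. The study took the 3 closest genes and reports binding of both isoforms at all 48, so a lower count here does not show missing binding.

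The classes also differed in how far the other lines shared them. A HIF-1α peak of another line lay at 87.9% of shared and 56.0% of HIF-1α-only sites, and 49.8% of shared sites had one in all 3 other lines. A HIF-2α peak of another line lay at 70.6% of shared and 59.7% of HIF-2α-only sites. No peak of any other line lay at 8.23% of shared, 42.8% of HIF-1α-only and 38.7% of HIF-2α-only sites. Over the 5 groups of HIF-1α rank, the share with a HIF-1α peak elsewhere went from 31.8% to 92.4%, and over those of HIF-2α rank the share with a HIF-2α peak elsewhere went from 44.3% to 92.9%.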

How the data were processed

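The authors trimmed reads with Trim Galore 0.3.3, aligned them to GRCh37 with BWA 0.7.5a-r405 and handled alignments with SAMtools 0.1.19, Picard 2.0.1 and bedtools 2.17.0, as the submitters' processing notes list. Their methods name T-PIC and MACS in control mode, then a filter for peaks of both callers by read count, and a rabbit pre-immunization serum as the negative control of the immunoprecipitation. The deposited lists carry MACS peak names, 1 list per library, numbered without gaps, and were taken as MACS calls before those filters. The MACS version, and whether the serum was the control for calling, are not given in the sources used here. The deposited lists hold, per peak, its position and the caller's score, with no read counts, so depth is unknown and scores were compared as percentiles within a library (ties averaged). HIF-1β libraries were not analysed here.

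Peaks were merged into sites and classes at a minimum overlap of 1 bp, in Python 3.11.15 with numpy 2.4.6, scipy 1.17.1 and pysam 0.24.0. The 2 sites off chromosomes 1 to 22, X and Y were left out of position and sequence values. Nearest genes came from GENCODE release 44 lifted to GRCh37, which names a neighbour and not a target. Motifs were searched on both strands of the central 200 bp and of flanks 5000 bp to either side. Libraries were compared by a two-sided exact permutation test. The steps were tested on simulated data.

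The named sites were the 10 best of each class by mean percentile (single-isoform sites without a peak of the other isoform), the 5 best over 10 kb from a start site, the 5 shared sites leaning most to each isoform, the genes with the most sites and the members of 18 gene lists. Members, lists and motifs were chosen with earlier results of these data known. The Hippo list and the follow-up of GGAATG were added after the data were seen. Some sites that these rules select are not reported here.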

Additional observations from a re-analysis of the deposited data

How the results depend on the processing

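The 5 differences between isoforms kept their direction in all alternatives but 1: the difference in the share with a HIF core was 4.25 points with peaks at or above the median score, against -7.57. Without 1 library they ranged from -36.6 to -34.9 points (promoter share), 1.52 to 1.62 (log10 distance), -554 to -512 bp (width), -9.50 to -5.64 points (HIF core) and -7.03 to -6.21 CpG. Class counts rest on the lists. HIF-1α-only, shared and HIF-2α-only sites numbered 1327, 143 and 56 with peaks at or above the median score, 5680, 759 and 1052 from either replicate, and 431, 174 and 161 with the 901 best peaks of each list. HIF-2α-only sites with no HIF-1α peak numbered 78. Without 1 library they ranged from 2050 to 4246, from 242 to 452 and from 91 to 810. Leaving out HIF-2α replicate 2 or 3 gave 582 and 810 HIF-2α-only sites, and leaving out HIF-1α replicate 2 or 3 gave 4223 and 4246 HIF-1α-only sites.

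Replicate numbers were shared by the isoforms, but the labels do not say whether libraries of the same number were paired. The difference in percentile between replicates 2 and 3 had a Pearson r of 0.090 between isoforms over 231 shared sites. This cannot decide the question, as ranks within a library remove shifts common to all its peaks. With the replicate number as a block the classes held 4031.5, 453 and 629 sites on average, and the promoter difference stayed at -35.8 points, with p = 0.5 by exact sign flips, the smallest 2 pairs can give.

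GGAATG stood in 31.9% of HIF-2α-only centres of 100 bp, in 55.1% of those with no HIF-1α peak and in 16.7% to 50.5% without 1 library, the low values being 16.7% without HIF-2α replicate 2 and 18.0% without replicate 3, where HIF-1α-only sites held 6.33% and 5.96%. With any of the 3 closest genes, 193 in place of 126 listed genes were near a HIF-1α site, beside 29.8% in place of 11.7% of all genes. With 2 libraries per isoform and unknown depth, a site called in 1 isoform is not shown to be unbound by the other.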

Other observations

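HIF sites per 1000 protein-coding genes were most frequent on chromosome 8, with 41.4 for HIF-2α, where 121 HIF-1α-only, 19 shared and 10 HIF-2α-only sites lay among 700 genes. Chromosome 10 followed for HIF-2α, at 31.6. Per Mb, chromosome 19 was highest instead, at 2.67 for HIF-1α and 0.304 for HIF-2α, against 0.957 and 0.198 on chromosome 8. Copy number was not measured in these lists, and its part in these values was not tested.

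Among promoter sites, another protein-coding gene started on the opposite strand within 1000 bp in 10.2% of HIF-1α-only sites, 10.2% of shared sites and 1 of 13 HIF-2α-only sites. Near GADD45B, 3 HIF-1α-only sites lay at -895, 13124 and 48571 bp and 2 HIF-2α-only sites at 41885 and 64542 bp from its start.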
